A study of Mus musculus with 6 samples.

Results

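The common gamma chain cytokine receptors are described here by 7 genes, chosen by name: Il2rg, Il2rb, Il2ra, Il15ra, Il7r, Il21r and Il4ra. All 7 were found among the 13675 genes of the normalized count table, and all 7 passed the filter on low values, a mean of at least 10 normalized counts. The cells were CD45.2 OT-I CD8+ T cells, which carry a transgenic T cell receptor for a peptide of ovalbumin, recovered from spleen after transfer into CD45.1 B6 host mice infected with Listeria monocytogenes-OVA and collected on day 7 of infection. Both groups carried the floxed CK2α gene (CK2α fl/fl, gene Csnk2a1), which encodes a catalytic subunit of the kinase CK2. In the 3 control-labelled samples it was the only modification given, and in the 3 knockout-labelled samples dLck-Cre was added, a Cre recombinase under the distal promoter of Lck, used to reach T cells late in thymic development. The 2 kinds of cells went into separate hosts, which kept their own lymphocytes. Ages, and whether each sample came from 1 animal or from pooled animals, are not given in the labels, so that each p is judged against a sample-to-sample spread that may be only technical.

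Common gamma chain receptors are surface receptors that share 1 signalling subunit, γc, encoded by Il2rg. The chain pairs with a private partner for each cytokine: IL-7Rα for interleukin-7, IL-4Rα for interleukin-4, IL-21R for interleukin-21, and IL-2Rβ for interleukin-2 and interleukin-15. IL-2Rα (CD25) and IL-15Rα add ligand affinity and carry little or no signal of their own. The kinase JAK3 binds γc and JAK1 binds the partner chains, and together they activate STAT factors, mainly STAT5 for interleukins 2, 7 and 15. In CD8+ T cells CD25 marks recent or strong activation, IL-7Rα marks cells able to persist as memory, and IL-2Rβ serves interleukin-15 dependent survival.

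Il2ra and Il15ra lie next to each other on chromosome 2 and gave different results, so the 250 bases upstream of their RefSeq starts (GRCm38.p6) are shown. For Il15ra the more upstream of 2 starts is given. The Il2ra window is chr2:11642542-11642791 and that of Il15ra is chr2:11705043-11705292, both on the plus strand and printed 5′ to 3′. Capitals mark matches on either strand to 5 motifs: TTCNNNGAA for STAT factors, TGTTTAC for FOXO, CCGGAAG for ETS, TGGAAA for NFAT and TATAAA for a TATA box.
Il2ra: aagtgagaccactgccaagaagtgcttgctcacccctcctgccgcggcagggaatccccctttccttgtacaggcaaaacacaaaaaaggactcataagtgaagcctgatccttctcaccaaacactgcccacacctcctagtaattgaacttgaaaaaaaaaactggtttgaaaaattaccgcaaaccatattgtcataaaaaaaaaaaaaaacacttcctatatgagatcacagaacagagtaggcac
Il15ra: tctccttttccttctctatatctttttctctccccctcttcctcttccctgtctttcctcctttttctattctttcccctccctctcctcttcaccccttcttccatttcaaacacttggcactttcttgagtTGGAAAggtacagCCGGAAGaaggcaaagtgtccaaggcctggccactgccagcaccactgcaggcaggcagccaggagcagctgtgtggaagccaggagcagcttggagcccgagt
The Il2ra window held no match to any of the 5 motifs, and that of Il15ra held 1 ETS and 1 NFAT match, which did not overlap. Among 32851 promoter windows of this length, 7.02% held the STAT motif, 3.17% the FOXO motif, 6.91% the ETS motif, 18.6% the NFAT motif and 12.4% the TATA box. RefSeq windows were found for 6 of the 7 genes, Il2rb being the other one. The Il7r window held 1 STAT match, the Il21r window 1 FOXO match and the Il2rg window 1 ETS and 1 NFAT match, while that of Il4ra held none. A match is a description of letters and does not show binding. The Il2ra window held 3 CpG sites and the Il15ra window 2, within the quartiles of 2 to 16 over all windows. The window of the other Il15ra start held 12 CpG sites and no match to the 5 motifs.

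Of the 7 receptor chains, Il2ra, the chain that gives the interleukin-2 receptor its high affinity, was lower in the knockout-labelled libraries, and the other 6 did not pass the test. The fall was 1.67-fold. The shared chain Il2rg and the private chains Il21r and Il4ra had 95% intervals that stayed between 0.838-fold and 1.12-fold of the control level. The test was limma on log2(normalized count + 1) over 13654 genes, knockout-labelled minus control-labelled, with a Benjamini-Hochberg adjusted p below 0.05 taken as a call. By this rule 1 of 7 chains was called, against 5.19% of all tested genes, 3.15% as lower and 2.04% as higher. On recovered reads edgeR called Il2ra alone among the chains, against 4.72% of all tested genes (2.72% as lower), and so did DESeq2, against 7.49% (4.58% as lower). At an unadjusted p below 0.05, limma again took in Il2ra and 0 of the other 6, against 21.4% of all tested genes.

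Facts of the libraries bear on every value below. Reads recovered per library ranged from 14746864 to 22931296, and 130 to 13528 reads stood behind single receptor values. Markers of CD8+ T cells (Cd3d, Cd3e, Cd3g, Cd8a, Cd8b1 and Trac) summed to 88414 to 96815 normalized counts in the control-labelled and 83784 to 90597 in the knockout-labelled libraries. Csnk2a1 stood above the controls in every knockout-labelled library, at 2786 to 2875 against 1645 to 1847 normalized counts (log2 fold change 0.72, SE 0.07, limma adjusted p = 0.000865). The gene named in the label was thus not lower. A count over the whole gene does not check a deleted exon, so the label could not be checked. Directions are therefore those of the library labels. The 13 B cell markers, all 13 of them above 0 in every library, summed to 3665 to 4285 normalized counts in the control-labelled and 5913 to 8874 in the knockout-labelled libraries. Pax5, which encodes a B cell transcription factor, was at 58.4 normalized counts in knockout-labelled library 1, within the control range of 56.1 to 79.7, but at 473 and 426 in libraries 2 and 3. Cd22 and Ighm, the 2 B cell markers that passed, were above every control in all 3. Markers of monocytes, macrophages and neutrophils summed to 835 to 1128 and 905 to 1136 normalized counts, and those of red cells and platelets to 147 to 206 and 115 to 135. In bulk samples, fewer cells of a type and less RNA per cell cannot be told apart.

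**Figure D1:**
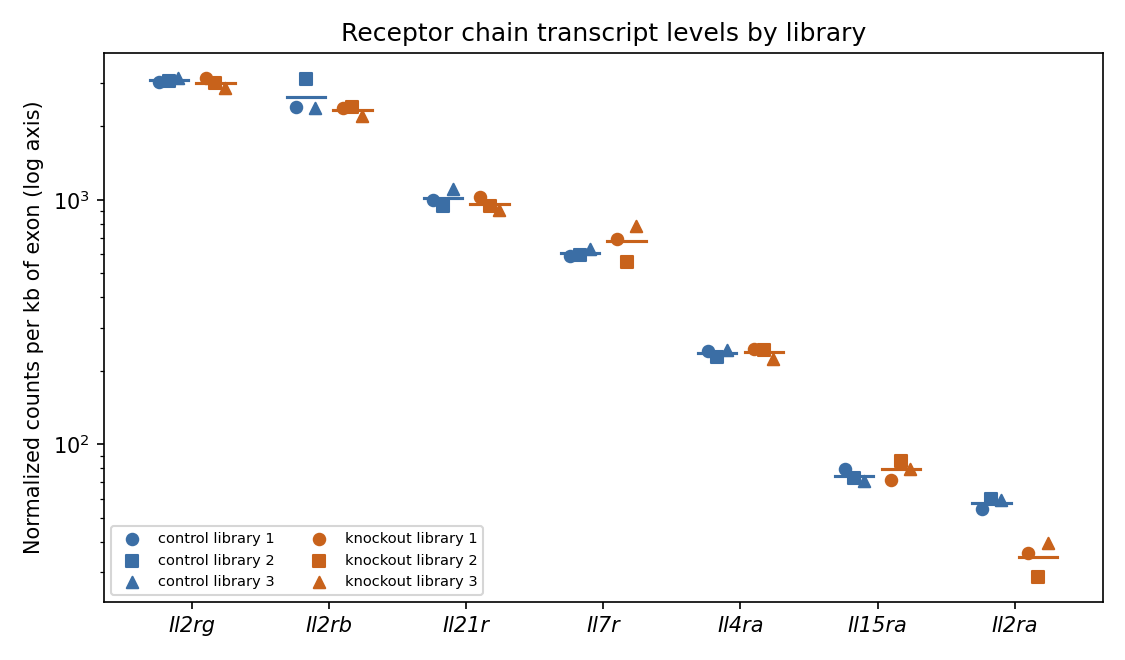
Normalized counts per kb of exon (log axis) of the 7 receptor chains in the 3 control-labelled (blue) and 3 knockout-labelled (orange) libraries, with a bar at each group mean. The order from Il2rg to Il2ra is the same in both groups, and Il2ra is the chain whose groups stand apart.

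Levels of different genes were compared per kb of union exon length (GENCODE M21), since longer transcripts gather more reads. The annotation behind the deposited counts is not given in the sources used here, so these levels hold for the annotation used. In the control-labelled libraries Il2rg stood at 3086 ± 50.5 normalized counts per kb (SD, n = 3) and Il2rb at 2641 ± 423. They were followed by Il21r at 1016 ± 83.1, Il7r at 605 ± 20.8, Il4ra at 237 ± 7.87, Il15ra at 74.3 ± 4.64 and Il2ra at 57.7 ± 3.02. Neighbours in this order did not overlap over the 3 control libraries, except Il2rg and Il2rb, where control library 2 put Il2rb at 3129 and Il2rg at 3066 per kb. The same order held in the knockout-labelled libraries, where Il2rb lay at 2209 to 2390 and Il2rg at 2871 to 3153 per kb. The transcripts of the 2 affinity-adding chains were thus the least abundant of the 7 and those of the 2 main signalling chains the most abundant.

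Il2rg (ENSMUSG00000031304, GRCm38 chromosome X, 101264378 to 101268255, minus strand) encodes γc itself. It measured 7274, 7319 and 7502 normalized counts in controls 1, 2 and 3, and 7527, 7191 and 6852 in the knockout-labelled libraries of these numbers. The groups overlapped, with both the highest and the lowest value in the knockout-labelled group. The means were 7365 ± 121 and 7190 ± 337 (SD, n = 3 each), a log2 fold change of -0.04 with a 95% interval of -0.18 to 0.11 (limma, adjusted p = 0.814). The sign turned under quantile normalization (0.04). The annotation places a second protein-coding model, Gm20489, over Il2rg on the same strand, and how reads shared by the 2 were counted is not given. Il2rg is X-linked. Xist, the RNA of the inactive X chromosome, was at 136 normalized counts in control-labelled library 1 and at 0 to 1.68 in the other 5 libraries. The Y-linked Ddx3y, Eif2s3y, Kdm5d and Uty were at 2040, 1756, 1213 and 466 in control-labelled library 1. In the other 5 libraries they were at 1684 to 2261, 1598 to 2057, 1011 to 1230 and 487 to 661. The part of Xist in the Il2rg value was not tested.

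Il2rb (ENSMUSG00000068227, chromosome 15, 78479256 to 78495271, minus strand) encodes IL-2Rβ, the signalling chain that the interleukin-2 and interleukin-15 receptors share. It measured 10328, 13415 and 10229 normalized counts in the controls and 10216, 10246 and 9468 in the knockout-labelled group. Control-labelled library 2 stood above all others, and the remaining 5 libraries lay close together, with the groups overlapping. The means were 11324 ± 1811 and 9976 ± 441 (SD, n = 3 each; on the log2 scale -0.17, 95% interval -0.41 to 0.06, adjusted p = 0.389). Without control-labelled library 2 the log2 fold change was -0.04 (adjusted p = 0.747), so that 1 library carries most of the difference. NK cells carry much Il2rb. Their 3 measured markers, Eomes, Klrb1c and Klra8, summed to 3561 to 4594 normalized counts in the control-labelled and 4362 to 4853 in the knockout-labelled libraries. The control maximum was in library 2, where Eomes, which CD8+ T cells also express, was 4196. Klrb1c and Klra8 were at 393 and 5.95 normalized counts in that library, each its lowest value among all libraries. The part of NK cells in the Il2rb values was not tested.

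Il2ra (ENSMUSG00000026770, chromosome 2, 11642807 to 11693193, plus strand) fell. It measured 310, 341 and 338 normalized counts in the controls and 206, 164 and 225 in the knockout-labelled libraries. All 3 knockout-labelled values lay under the lowest control value, a separation of groups that 25.7% of all tested genes showed in one direction or the other and 13.8% as lower in the knockout-labelled libraries. The control values were close together, and the knockout-labelled values spread more widely, with library 2 the lowest. The means were 330 ± 17.3 and 198 ± 31.3 (SD, n = 3 each), a log2 fold change of -0.74 (SE 0.13, 95% interval -1.04 to -0.44, limma adjusted p = 0.013), or 1.67-fold lower. The exact two-sided permutation p was 0.1, the smallest that 3 against 3 can give. In size the change exceeded that of 94.3% of tested genes.

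The Il2ra call was lost without control-labelled library 3 (log2 fold change -0.72, limma adjusted p = 0.0647). It was also lost with the B cell marker level as a covariate (-0.66, adjusted p = 0.105). Without knockout-labelled libraries 2 and 3 together the log2 fold change of Il2ra was -0.68. That fit left 1 knockout-labelled library, so it cannot decide the call. Knockout-labelled library 1, in which Pax5 was at the control level, differed from the control mean of Il2ra by -0.68 on the log2 scale, between library 3 at -0.55 and library 2, which was lower still. Cd22 and Ighm were raised in library 1 too, and their part in the Il2ra value was not tested. The covariate was the mean log2 level of the listed B cell markers without Ighm and Ighd. A transcript model of uncertain coding status, Gm37881, overlaps Il2ra on the same strand. Regulatory T cells carry high Il2ra. Of their and the CD4 T cell markers, Cd4 was at 16.7 ± 4.56 and 16.7 ± 2.98 normalized counts (SD, n = 3 each) and Zbtb7b at 1855 ± 235 and 2285 ± 112. Foxp3 and Ikzf4 were not among the genes of the normalized count table, so they could not be analysed. The lowest mean of any gene in that table was 9.69 normalized counts. Whether these 2 genes were left out for low counts was not tested.

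**Figure D2:**
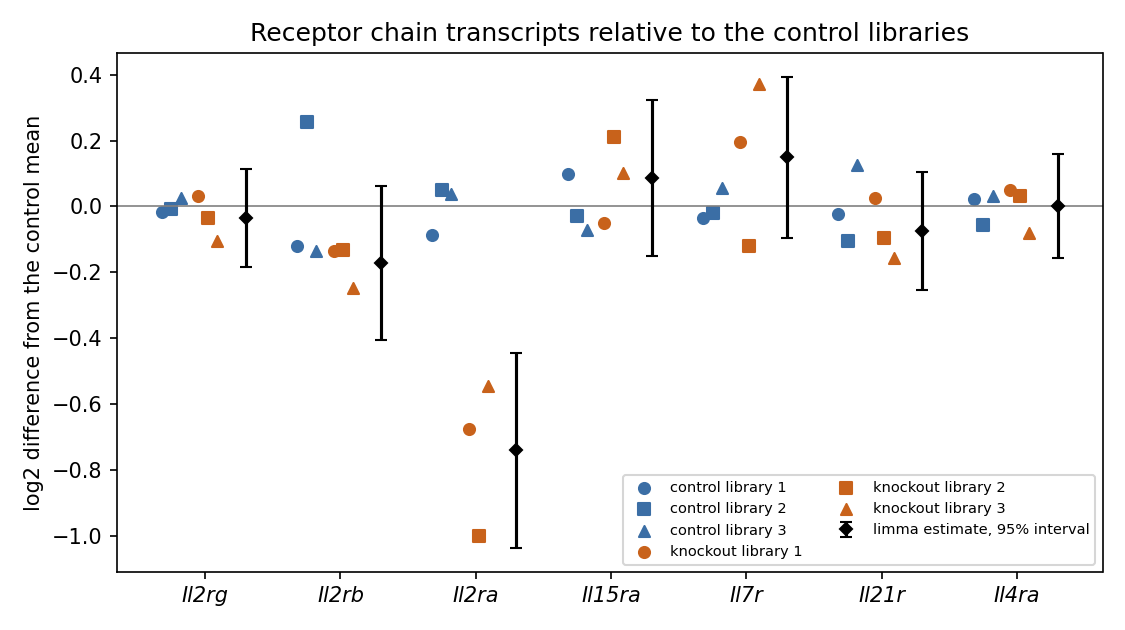
Difference of each library from the mean of the control-labelled libraries on the log2 scale, for the 7 receptor chains, with the limma estimate and its 95% interval (black) beside the points. For Il2ra the 3 knockout-labelled libraries sit between -0.55 and a lowest value near -1, and for each of the other chains the interval spans 0.

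Il15ra (ENSMUSG00000023206, chromosome 2, 11705290 to 11734317, plus strand) encodes the chain that holds interleukin-15 and presents it to IL-2Rβ and γc. It starts 12096 bases beyond the end of Il2ra. It measured 354, 323 and 314 normalized counts in the controls, against 319, 382 and 354 in the knockout-labelled libraries. The groups overlapped. The means were 330 ± 20.6 and 352 ± 31.6 (SD, n = 3 each; on the log2 scale 0.09, 95% interval -0.15 to 0.32, adjusted p = 0.694). Per kb of exon, Il15ra lay above Il2ra in all 6 libraries.

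Ratios within a library compare chains free of library scaling. Il2ra per kb was 68.2%, 82.1% and 83.7% of Il15ra per kb in the controls and 50.2%, 33.4% and 49.5% in the knockout-labelled libraries. Relative to Il2rb, with which it forms the high-affinity receptor, Il2ra was 2.25%, 1.91% and 2.48% in the controls and 1.51%, 1.20% and 1.79% in the knockout-labelled libraries. Relative to Il2rg it was 1.87% ± 0.0849 and 1.16% ± 0.211 (SD, n = 3 each). In all 3 ratios the groups stood apart, and each had an exact two-sided permutation p of 0.1, the smallest possible at this size (0.3 after Benjamini-Hochberg adjustment over 9 ratios). All 3 have Il2ra as numerator, so they are not separate from its own fall or from each other. The other 6 ratios, among them Il2rb, Il7r, Il21r and Il4ra each over Il2rg, had overlapping groups and exact p of 0.2 to 0.6.

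Il7r (ENSMUSG00000003882, chromosome 15, 9505788 to 9530176, minus strand) encodes IL-7Rα. It measured 2748, 2779 and 2930 normalized counts in the controls. The knockout-labelled values were 3229, 2591 and 3649, so that libraries 1 and 3 were above every control and library 2 below every control. The spread among the knockout-labelled libraries, an SD of 533 about a mean of 3157, was larger than the difference from the control mean of 2819 ± 97.2 (SD, n = 3). The log2 fold change was 0.15 (95% interval -0.10 to 0.39, adjusted p = 0.483). It was 0.28 without knockout-labelled library 2 (adjusted p = 0.119) and 0.04 without knockout-labelled library 3 (adjusted p = 0.896).

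Il21r (ENSMUSG00000030745, chromosome 7, 125603429 to 125633570, plus strand) encodes the interleukin-21 receptor, and it lies 23954 bases beyond Il4ra (ENSMUSG00000030748, chromosome 7, 125552120 to 125579474, plus strand), which encodes IL-4Rα. Il21r measured 3318, 3136 and 3678 normalized counts in the controls, against 3431, 3152 and 3023 in the knockout-labelled libraries. Il4ra measured 1447, 1370 and 1456 in the control-labelled and 1474, 1457 and 1347 in the knockout-labelled libraries. For both genes the groups overlapped over most of their range. The log2 fold change of Il21r was -0.08 (95% interval -0.25 to 0.10, adjusted p = 0.644) and that of Il4ra was 0.00081 (95% interval -0.16 to 0.16, adjusted p = 0.998). The change of Il4ra was smaller than that of all but 0.337% of tested genes. B cells express Il4ra, Il21r and Il2rg as well, and the part of the raised B cell markers in these 3 values was not tested. With the B cell marker level as a covariate the log2 fold changes of Il21r and Il2rg were 0.01 and 0.02, both with the opposite sign. An annotated antisense gene, Gm44876, overlaps Il4ra, and as the use of strand in counting is not given, reads of the pair cannot be told apart.

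The genes around the receptor chains were described next. Within 100 kb of the 7 genes, 19 other genes were tested, and limma called 0 of them (5 at an unadjusted p below 0.05, of which 4 were lower, where 21.4% of all tested genes lay below it; edgeR called 0, and DESeq2 called 1, Kctd17 near Il2rb, as lower). Their median log2 fold change was -0.03. Around Il2ra, Rbm17, a splicing factor gene, had a log2 fold change of 0.07 (SE 0.08, adjusted p = 0.634) and Pfkfb3, which encodes a regulator of glycolysis, one of -0.24 (SE 0.07, adjusted p = 0.0999). On the far side of Il15ra, Fbh1, a DNA helicase gene, was at -0.03 (SE 0.07) and Ankrd16 at 0.05 (SE 0.14).

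**Figure D3:**
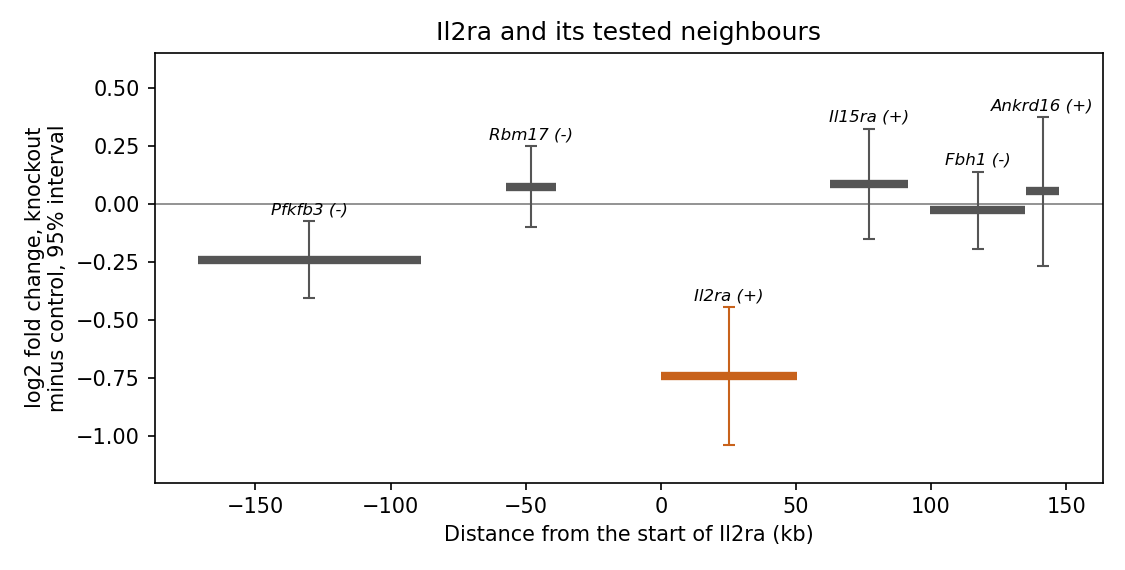
log2 fold change (knockout-labelled minus control-labelled) with 95% interval against the distance from the start of Il2ra in kb, for Il2ra and its tested neighbours within 100 kb, each drawn over its gene body with its strand. Il2ra, in orange, at -0.74, is the 1 gene of the 6 that passed, and Il15ra beside it is at 0.09.

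The genes whose values over the 6 libraries lay nearest to those of Il2ra were sought among genes averaging 50 normalized counts or more, by the root mean square difference of log2 values centred over the libraries. The nearest were Syne3, which encodes a nuclear envelope protein (0.075), Gm19585 (0.077) and Cerkl, a ceramide kinase-like gene (0.079). Syne3 measured 768, 877 and 808 normalized counts in the controls, and 509, 426 and 500 in the knockout-labelled libraries. Knockout-labelled library 2 was the lowest of the 6 for Syne3, Gm19585 and Cerkl, as for Il2ra. As the genes were picked by likeness over these same 6 libraries, this follows largely from the choice.

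Of the pathway around the chains, 45 further genes were listed and 37 were tested. Of these, 5 fell and 0 rose, which is 13.5% of them against 5.19% of all tested genes (3.15% as lower and 2.04% as higher). Their median log2 fold change was -0.13 against 0.0061 over all tested genes. The 5 that fell were Jak1, Gab2, Ptpn6, Gfi1 and Prdm1. edgeR called 5 lower and 0 higher, and DESeq2 7 lower and 0 higher. At an unadjusted p below 0.05, 16 were lower and 2, Myc and Socs3, higher, a threshold that 11.2% of all tested genes passed as lower and 10.2% as higher. The lists were drawn up with earlier results of these data known.

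Of 12 genes of JAK kinases, STAT factors and adaptors, 2 fell and 10 did not pass, where 3.15% of all tested genes fell. Jak1, the kinase bound to the partner chains, measured 46524, 43898 and 49780 normalized counts in the controls, against 34138, 34510 and 32671 in the knockout-labelled libraries. Its groups did not overlap, as for 6 of the 12 genes of this list and 25.7% of all tested genes in either direction. Jak1 was 1.38-fold lower (log2 fold change -0.47, SE 0.09, limma adjusted p = 0.0141). Gab2, an adaptor that links these receptors to PI3K, measured 103, 107 and 116 normalized counts in the controls and 63.0, 70.6 and 61.5 in the knockout-labelled libraries (1.67-fold lower, adjusted p = 0.0279). Gab2 passed in 1 of 6 runs leaving 1 library out, that without control-labelled library 2, with an adjusted p of up to 0.152, and Jak1 in 3 of 6, with up to 0.101 without control-labelled library 3. Jak3, the kinase bound to γc, missed the threshold (-0.27 on the log2 scale, SE 0.09, adjusted p = 0.116), as did Sos1 (-0.23, SE 0.08) and Stat3 (-0.16, SE 0.06). Stat5a and Stat5b, the factors that interleukin-2 activates, were at -0.09 (SE 0.08) and -0.07 (SE 0.07).

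Of 7 feedback inhibitors and phosphatases 1 fell and 6 did not pass, where 3.15% of all tested genes fell. Ptpn6, the phosphatase SHP-1, measured 8651, 8584 and 10441 normalized counts in the controls and 6616, 6942 and 6226 in the knockout-labelled libraries (1.39-fold lower, limma adjusted p = 0.0142). It passed in 4 of 6 runs leaving 1 library out, with an adjusted p of up to 0.0875 without knockout-labelled library 3. Ptpn2, a phosphatase of JAK1 and STAT5, did not pass (-0.23, SE 0.07, adjusted p = 0.104), nor did the cytokine-induced inhibitors Socs3 (0.31, SE 0.10, adjusted p = 0.122) and Socs2 (0.44, SE 0.21). Cish, which STAT5 induces, was at 289 ± 64.1 and 305 ± 33.1 normalized counts (SD, n = 3 each).

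Of 7 STAT5 target and survival genes, 0 passed by limma or edgeR, while DESeq2 called Bcl2 lower, and 5 had an unadjusted limma p below 0.05, against 21.4% of all tested genes. Bcl2, which protects against apoptosis, measured 535, 734 and 586 normalized counts in the controls and 411, 398 and 516 in the knockout-labelled libraries (log2 fold change -0.48, SE 0.14, limma adjusted p = 0.0757). Mcl1, another survival gene, was at -0.24 (SE 0.09, adjusted p = 0.15), Pim1, a survival kinase, at -0.24 (SE 0.10, adjusted p = 0.193) and Myc, a growth regulator, at 0.26 (SE 0.09, adjusted p = 0.126).

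Of 8 transcription factor genes tied to the receptor chains 2 fell and 6 did not pass, where 3.15% of all tested genes fell. Gfi1, a repressor of Il7r in T cells, measured 795, 615 and 844 normalized counts in the controls and 536, 473 and 485 in the knockout-labelled libraries (log2 fold change -0.58, SE 0.12, limma adjusted p = 0.0232). Prdm1, which encodes Blimp-1, a repressor of Il2 in T cells, measured 1208, 927 and 1186 in the controls and 690, 720 and 673 in the knockout-labelled group (1.58-fold lower, adjusted p = 0.00715). Gfi1 passed in 2 of 6 runs leaving 1 library out, with an adjusted p of up to 0.11 without control-labelled library 3, and Prdm1 in 5 of 6, the exception being that without knockout-labelled library 3 (0.0502). The calls of Jak1, Gab2, Ptpn6, Gfi1 and Prdm1 were all lost with the B cell marker level as a covariate (adjusted p = 0.0581 to 0.143), at log2 fold changes of like size. Without knockout-labelled libraries 2 and 3 their log2 fold changes were -0.45 to -0.78. With 1 knockout-labelled library left, that fit cannot decide a call. Foxo1, an activator of Il7r, was at -0.08 (SE 0.07), and Eomes and Tbx21, activators of Il2rb, were at 0.21 (SE 0.14) and -0.26 (SE 0.10), with adjusted p of 0.417 and 0.153. Without control-labelled library 2, Eomes was at 0.40 (limma adjusted p = 0.00305) and Tbx21 at -0.35 (0.0131). Jak3, Ptpn2, Socs3, Pim1 and Myc passed in that run as well (0.0187 to 0.045). Calls over all genes rose there too, to 2028 of 13623 tested, against 708 of 13654 in the main fit. Mcl1 passed without knockout-labelled library 1 (0.0389).

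Of the 3 further partner chains and 8 ligands listed, 3 genes were tested and 0 passed by limma, edgeR or DESeq2, with 0 at an unadjusted p below 0.05. Crlf2, the partner of IL-7Rα in the TSLP receptor, was at 1175 ± 70.5 and 1211 ± 76.1 normalized counts (SD, n = 3 each). Il13ra1 was at 24.7 ± 17.6 and 19.6 ± 8.20. Il15 was low, at 22.5, 21.8 and 8.38 normalized counts in the control-labelled and 24.1, 22.7 and 26.8 in the knockout-labelled libraries (log2 fold change 0.57, SE 0.39, adjusted p = 0.447). Il9r, the remaining partner chain, and the remaining ligand genes were not among the genes of the normalized count table, so they could not be analysed. The lowest mean of any gene in that table was 9.69 normalized counts, and whether low counts kept these genes out was not tested.

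**Figure D4:**
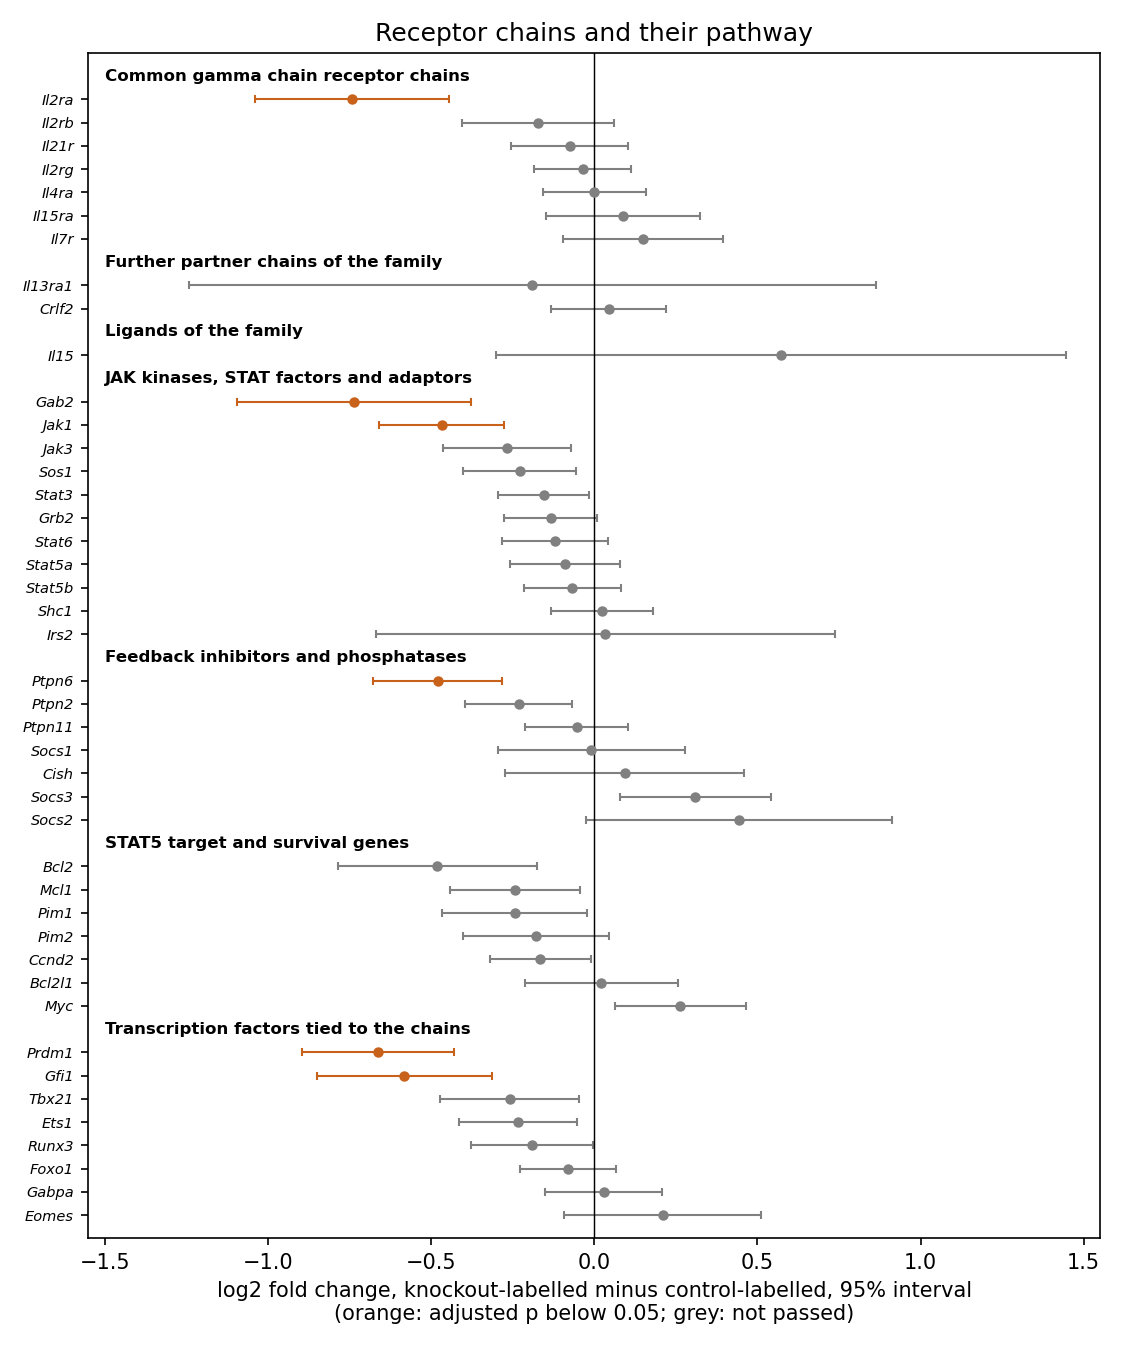
log2 fold change (knockout-labelled minus control-labelled) with 95% interval for the 7 receptor chains and the tested pathway genes by list, leaving out 1 gene that is not reported here, orange where the adjusted p was below 0.05 and grey where it was not. The genes in orange are Il2ra, Gab2, Jak1, Ptpn6, Prdm1 and Gfi1, all lower.

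Beside the 1 of 7 common gamma chain receptor chains, 2 of 8 chains of the IL-12, IL-18, IL-27 and gp130 receptors fell, Il12rb2 (log2 fold change -1.15, SE 0.12) and Il6st (-0.80, SE 0.09), and 2 of 6 chains of the IL-10 and interferon receptors, Il10ra (-0.57, SE 0.07) and Ifngr1 (-0.49, SE 0.07). These counts stand beside the 3.15% of all tested genes called lower. DESeq2 also called Il18rap lower (-0.34 by limma, SE 0.14, adjusted p = 0.203). Ifngr1 lost its call with the B cell marker covariate (adjusted p = 0.0659). Without knockout-labelled libraries 2 and 3 the log2 fold changes of the 4 were -1.27 (Il12rb2) to -0.45 (Ifngr1). With 1 knockout-labelled library left, that fit cannot decide a call. None of the 21 chains rose by limma, edgeR or DESeq2, where limma called 2.04% of all tested genes higher. At an unadjusted limma p below 0.05, 1 chain, Il6ra, was higher, against 10.2% of all tested genes. Without control-labelled library 2, Il6ra and Il18rap passed (log2 fold changes 0.48 and -0.54), in a run that called 2028 of 13623 genes. The median log2 fold changes of the 3 lists were -0.04, -0.30 and -0.06, and whether the lists differ was not tested.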

How the data were processed

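RNA sequencing of 6 samples, 3 control-labelled and 3 knockout-labelled, was analysed. The deposited table holds a signal on a linear scale, normalized counts: by its values, gene counts that the authors divided by 1 factor per sample. The genome build is mm10 per the submitters' processing notes. Neither aligner, counting program, annotation nor strand use is stated in the labels. Every value was a whole multiple of its column's step (100% within 0.01), so reads were recovered. Of 13675 gene IDs 13648 matched a symbol in GENCODE M21 (GRCm38, the assembly also called mm10). No pair of libraries looked like 1 library deposited again (lowest chi-square over its degrees of freedom 5.32).

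Values were log2-transformed after adding 1 and fitted with limma 3.58.1 (R 4.3.3; moderated two-sided test, variance trend) over the 13654 genes with a mean of at least 10. The added 1 makes changes of low genes look smaller. Each adjusted p is from this fit unless another tool is named. edgeR 4.0.16 and DESeq2 1.42.0 were run on recovered reads. The fits were tested on simulated counts, where DESeq2 made more false calls than limma, so DESeq2 served as an alternative only.

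Same-numbered samples did not deviate together (correlations -0.544, -0.27 and -0.235), and the main fit did not pair them. With so few samples in a group, these correlations cannot show whether a number marks a shared animal or day. Members, lists and alternatives were chosen with earlier results of these data known. Named genes were the members, the CK2α gene, called pathway genes and up to 4 others per list with the smallest p, called genes of the 2 compared lists, neighbours and the 3 genes nearest to a called member. Other genes, such as Pax5, Stat5a, Stat5b, Cish, Eomes, Foxo1 and Il6ra, were chosen after their values were seen. A few single-gene values are not reported here.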

Additional observations from a re-analysis of the deposited data

How the results depend on the processing

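The call of Il2ra kept its direction in 19 of 19 alternatives (log2 fold change -0.84 to -0.61) and was lost in 5. They included no variance trend (adjusted p = 0.0703), the replicate block (0.0588), leaving out control-labelled replicate 3 (0.0647) and the B cell marker covariate (0.105). The remaining one left out knockout-labelled replicates 2 and 3. With 1 knockout-labelled library left, it cannot show a loss particular to Il2ra. In those 5 the count of receptor chains called lower was 0. Over the 6 runs that left out 1 replicate it was 0 to 1. Il2rb and Il7r kept their signs in 19 of 19 alternatives without passing. Signs of small differences turned. Il2rg was at 0.035 after quantile normalization, 0.031 without knockout-labelled replicates 2 and 3 and 0.024 with the covariate. Il4ra was at -0.039 with array weights, and at -0.027 to 0.041 when 1 replicate was left out. Il15ra was at -0.050 and -0.052 without knockout-labelled replicates 2 and 3 and with the covariate, and Il21r at 0.026 and 0.011. The cause was not tested. Of the called pathway genes, Jak1, Ptpn6, Gfi1 and Prdm1 lost their calls with no variance trend (adjusted p = 0.0631, 0.1, 0.114 and 0.0713), as did Ifngr1 (0.0688), and Jak1, Gab2, Ptpn6 and Gfi1 with the replicate block (0.0861, 0.113, 0.0815 and 0.0574).

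Over all genes, 278 were called higher and 430 lower. With no variance trend these counts were 80 and 61, under array weights 1315 and 1361, with the replicate block 89 and 108, and with the covariate 76 and 121. They were 0 and 0 without knockout-labelled replicates 2 and 3, when 1 knockout-labelled library was left and assumed to vary like the controls, and 1861 genes had an unadjusted limma p below 0.05. DESeq2 gave 397 and 626. Leaving out 1 replicate gave 82 to 1046 higher and 118 to 982 lower, most without control-labelled replicate 2. Depth limits Il2ra and Il15ra most, with 130 to 403 reads per library.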
